A study of Homo sapiens with 24 samples.

Results

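CCNE1 and CCNE2 encode the E-type cyclins, and CDK2 encodes the kinase that both cyclins activate. They were chosen by probe name, as 3 of the 189 endogenous genes of an nCounter cell cycle panel, and all 3 were counted in each of 24 libraries. nCounter captures RNA with a coloured barcode probe for each gene and counts single molecules without amplification. The RefSeq gene table lists the probe accessions of CCNE1 and CDK2 under those symbols. It does not list that of CCNE2, which is therefore named here from the deposited tables alone.

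Cyclin E proteins accumulate late in G1, bind CDK2 and drive the entry into S phase, where the kinase acts on the retinoblastoma protein and on the machinery that fires replication origins. Transcription of both cyclin genes is driven by E2F factors and restrained by the retinoblastoma family, so that cyclin E and E2F reinforce one another. CDK2 activity is held back by p21 and p27, and cyclin E protein is removed through ubiquitin ligases that use FBXW7 or SKP2. Transcript levels of the 3 genes are what the panel measured. Kinase activity and protein were not.

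In HCT116, a colorectal cancer line, 1 group received a control siRNA (siCTRL) and 5 groups received an siRNA against CARLo-1 v3, CARLo-3, CARLo-4, CARLo-5 or CARLo-7 v2, each at 50 nM. In PC3, a prostate cancer line, 1 group received control siRNA and 1 group an siRNA against CARLo-1 v2&4, both at 100 nM. CARLo transcripts are long non-coding RNAs. All 8 groups held 3 libraries of total RNA, transfected with the same lipid reagent. The labels do not say whether the 3 were separate cultures, so each p-value measures a spread between libraries that may be technical. The panel has no probe for a CARLo transcript, hence knockdown was not measured, and each line is a single established line that stands for no other.

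Endogenous totals were 55893 to 236508 counts per library, and in 24 of 24 libraries the 3 genes exceeded background, set at 2 SD over the mean negative probe. Among the 21 libraries deposited as raw counts, the lowest counts were 69 for CCNE1, 40 for CCNE2 and 91 for CDK2, for which counting error alone gives coefficients of variation of 12.04%, 15.8% and 10.5%. Replicate 3 of HCT116 siCARLo-1 v3 stood apart from its group, with a chi-square per degree of freedom of 56.2 and 50.2 against replicates 1 and 2, where other pairs of a group gave 1.18 to 4.46. The lowest of these belonged to HCT116 control libraries 1 and 2 (p = 0.0495, chi-square test over 178 genes). The positive control sums of the deposited series-wide table fell into 4 sets, and no siCARLo group shared a set with its control. If the sets are instrument runs, a comparison of siRNA with control also compares 2 runs, and these cannot be told apart. Within HCT116, siCARLo-1 v3 shares a set with siCARLo-3 and with siCARLo-4, and siCARLo-5 shares one with siCARLo-7 v2. Of the line markers, the epithelial gene CDH1 was above background in 18 of 18 HCT116 and 6 of 6 PC3 libraries, and the mesenchymal gene TWIST1 in 0 of 18 and 5 of 6. In the control cells both genes were higher in PC3, CDH1 by 2.18 and TWIST1 by 3.12 on the log2 scale.

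Levels below are normalised counts, that is counts per 100000 endogenous counts after TMM scaling of library sizes, with SD and n = 3 libraries per group. Fold changes are relative to the bulk of the panel. Called genes had an adjusted p under 0.05 (Benjamini-Hochberg over all genes tested) by edgeR's quasi-likelihood test in HCT116. For comparisons that use PC3 siCARLo-1 v2&4, whose values are no raw counts, the test was limma's. Probes differ in efficiency, so levels were compared between groups for a gene and not between genes.

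In the control cells the lines differed in both cyclins. On a scaling shared by all 24 libraries, CCNE1 was 151, 155 and 158 in the 3 HCT116 controls and 53.4, 51.5 and 47.3 in the 3 PC3 controls. The groups lay far apart, and CCNE1 was lower in PC3 (log2 -1.58 ± 0.12 SE, adjusted p = 5.39e-11, edgeR), with a difference ranked 15 of 184 genes by size. CCNE2 went the other way, at 129, 110 and 111 in HCT116 and 164, 180 and 167 in PC3, which was 1.48-fold higher in PC3 (log2 0.57 ± 0.14, adjusted p = 9.40e-04, edgeR). CDK2 was 172, 187 and 182 in HCT116 and 163, 175 and 177 in PC3, with overlapping ranges and a log2 difference of -0.05 (95% interval -0.22 to 0.12, adjusted p = 0.634, edgeR). Of the 3 genes 2 were thus called between the lines, where 72.8% of all genes tested were called, 38.6% as higher in PC3 and 34.2% as lower. By size the CCNE2 and CDK2 differences ranked 78 and 175 of the 184. Ranges did not overlap for the 2 cyclin genes, nor for 77.2% of all genes. The line comparison also differs in siRNA dose and in the set of positive control sums, and these cannot be told apart from the line. With library sizes set by 6 reference genes, the CCNE2 difference was 0.40 (adjusted p = 0.0694, edgeR).

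**Figure D1:**
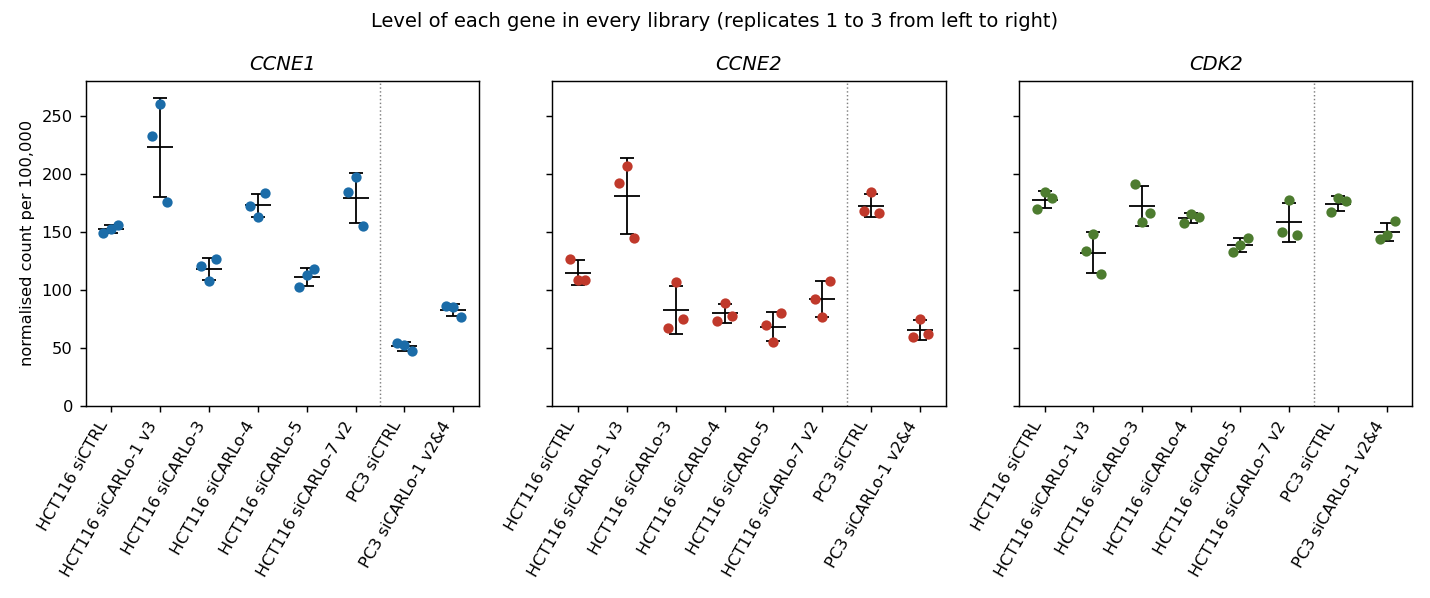
Normalised count per 100000 endogenous counts (vertical axis) of CCNE1, CCNE2 and CDK2 in every library of the 8 groups. Points are libraries, horizontal bars the mean and SD of 3 libraries, and the dotted line separates HCT116 from PC3, which were scaled separately. CCNE1 was highest in HCT116 siCARLo-1 v3 and lowest in the PC3 control, CCNE2 fell from 173 to 65.2 in PC3, and the HCT116 group means of CDK2 lay between 132 and 178.

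Against the HCT116 control, the calls of the 3 genes differed from one siRNA group to the next, which is not in itself a test between siRNAs. After siCARLo-1 v3 both cyclins rose and CDK2 fell, so 3 of 3 genes were called where 41% of all genes were, 16.9% as higher and 24.2% as lower. After siCARLo-5 all 3 fell, against 55.1% of all genes called, 25.3% higher and 29.8% lower. After siCARLo-3 CCNE1 fell and the others were not called, against 52.2% of all genes, 25.3% higher and 27% lower. After siCARLo-4 CCNE2 fell and the others were not called, against 35.4%, 18% higher and 17.4% lower. After siCARLo-7 v2, 0 of the 3 were called by edgeR, against 37.1% of all genes, 20.8% higher and 16.3% lower, and 0 of the 3 had an unadjusted p under 0.05 or were called by DESeq2. By size of change among 178 genes, CCNE1, CCNE2 and CDK2 ranked 42, 28 and 61 after siCARLo-1 v3 and 74, 34 and 91 after siCARLo-5. CCNE1 ranked 96 after siCARLo-3, and CCNE2 ranked 31 after siCARLo-4. The 5 comparisons share the same 3 control libraries and are therefore not independent of one another.

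**Figure D2:**
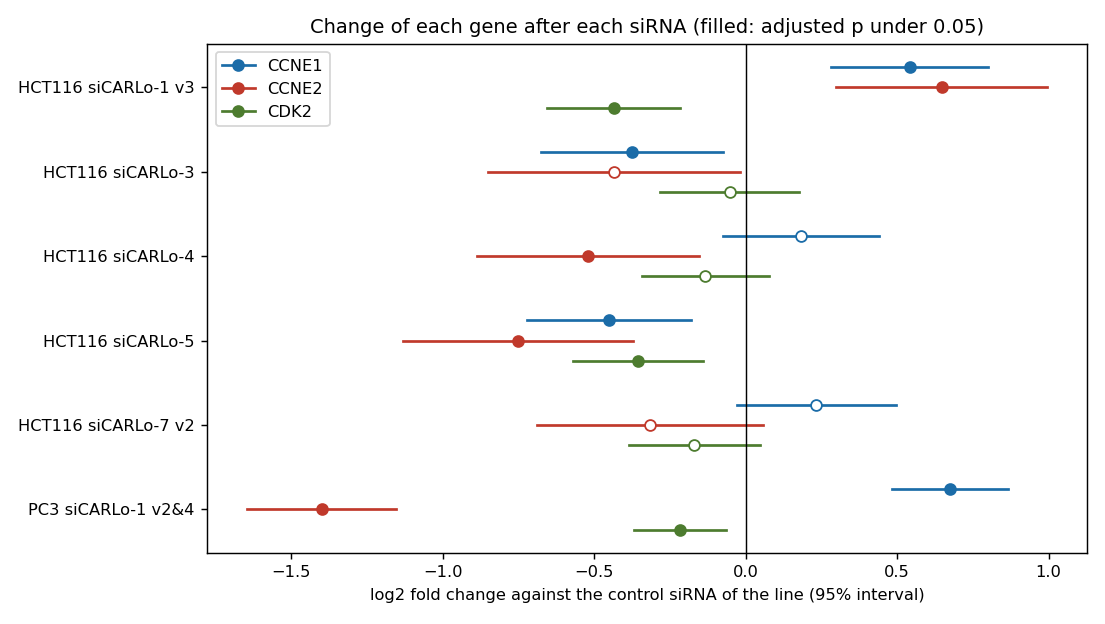
Log2 fold change (horizontal axis) of CCNE1, CCNE2 and CDK2 in each siCARLo group against the control siRNA of its line, with 95% intervals. Filled points have an adjusted p under 0.05. CCNE1 and CCNE2 were both above 0 after HCT116 siCARLo-1 v3 (0.54 and 0.65), and lay on opposite sides of 0 after PC3 siCARLo-1 v2&4 (0.67 and -1.40).

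CCNE1, the E-type cyclin first described as limiting for S phase entry, was 149, 153 and 156 in the HCT116 control libraries (152 ± 3.29). After siCARLo-1 v3 it was 233, 260 and 176 (223 ± 42.8), and after siCARLo-7 v2 185, 197 and 155 (179 ± 21.6). Replicate 3 was the lowest library of each of these 2 groups, and in siCARLo-7 v2 it fell within the control range. CCNE1 was 172, 163 and 183 after siCARLo-4 (173 ± 10.1), 121, 108 and 126 after siCARLo-3 (118 ± 9.60), and 102, 113 and 118 after siCARLo-5 (111 ± 7.87). Every siCARLo-4 library lay above the controls, and every siCARLo-3 and siCARLo-5 library below them. The group means therefore ran from siCARLo-1 v3 through siCARLo-7 v2, siCARLo-4, the control and siCARLo-3 down to siCARLo-5. In this order the first 3 groups overlapped their neighbours, as did the last 2, and siCARLo-4 and the control did not overlap but also did not differ by the test.

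CCNE1 rose 1.46-fold after siCARLo-1 v3 (log2 0.54 ± 0.12 SE, adjusted p = 0.00174, edgeR). Without replicate 3, the library that stood apart, the change was 0.69 (adjusted p = 2.97e-05, edgeR). It fell 1.37-fold after siCARLo-5 (log2 -0.45 ± 0.13, adjusted p = 0.00613) and 1.30-fold after siCARLo-3 (log2 -0.38 ± 0.14, adjusted p = 0.0344). The siCARLo-3 call was lost when control replicate 1 or 3 or siCARLo-3 replicate 1 or 2 was left out, with adjusted p of 0.0554, 0.0706, 0.0593 and 0.148. After siCARLo-4 and siCARLo-7 v2 the log2 differences were 0.18 (95% interval -0.08 to 0.44, adjusted p = 0.274) and 0.23 (-0.03 to 0.50, adjusted p = 0.156).

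CCNE2, the second E-type cyclin and like CCNE1 an E2F target, was 127, 108 and 109 in the control libraries (115 ± 10.6). After siCARLo-1 v3 it was 192, 206 and 144 (181 ± 32.4), and no library of the group reached down to the controls. In the other groups it was lower, at 92.3, 76.9 and 107 after siCARLo-7 v2 (92.2 ± 15.2) and 67.1, 106 and 75.0 after siCARLo-3 (82.8 ± 20.8). It was 73.4, 88.5 and 77.0 after siCARLo-4 (79.6 ± 7.89) and 69.8, 54.8 and 80.1 after siCARLo-5 (68.3 ± 12.7). In these 4 groups the highest library lay just under or well under the lowest control of 108. In order of mean, siCARLo-1 v3 and the control stood clear of their neighbours, while the neighbours from siCARLo-7 v2 through siCARLo-3 and siCARLo-4 to siCARLo-5 overlapped in turn.

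CCNE2 rose 1.57-fold after siCARLo-1 v3 (log2 0.65 ± 0.17 SE, adjusted p = 0.00406, edgeR), or by 0.78 on the log2 scale without replicate 3 (adjusted p = 3.92e-04). It fell 1.68-fold after siCARLo-5 (log2 -0.75 ± 0.18, adjusted p = 0.00183) and 1.44-fold after siCARLo-4 (log2 -0.52 ± 0.17, adjusted p = 0.0241). The siCARLo-4 call was lost without control replicate 1 (adjusted p = 0.109) or without siCARLo-4 replicate 1 or 3 (adjusted p = 0.0726 and 0.0752). It was also lost with control libraries 1 and 2 counted as 1 (adjusted p = 0.0537). The differences after siCARLo-3 and siCARLo-7 v2 were -0.44 (95% interval -0.85 to -0.02, adjusted p = 0.0737) and -0.32 (-0.69 to 0.06, adjusted p = 0.173). Replicate 2 was the high library of siCARLo-3, and without it the CCNE2 difference was -0.70 and called (adjusted p = 0.0174, edgeR).

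CDK2, the catalytic partner of both cyclins, moved over a narrower range. It was 170, 184 and 179 in the control libraries (178 ± 7.42), 191, 158 and 166 after siCARLo-3 (172 ± 17.1) and 157, 165 and 163 after siCARLo-4 (162 ± 4.09). It was 150, 177 and 147 after siCARLo-7 v2 (158 ± 16.6), 132, 138 and 145 after siCARLo-5 (139 ± 6.36) and 134, 149 and 114 after siCARLo-1 v3 (132 ± 17.5). All libraries of siCARLo-1 v3, siCARLo-4 and siCARLo-5 lay below the controls, and the other 2 groups overlapped them. Neighbours in this order overlapped, except that every siCARLo-7 v2 library was above every siCARLo-5 library.

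CDK2 fell 1.35-fold after siCARLo-1 v3 (log2 -0.44 ± 0.10 SE, adjusted p = 0.00263, edgeR) and 1.28-fold after siCARLo-5 (log2 -0.36 ± 0.10, adjusted p = 0.00630). Without replicate 3 of siCARLo-1 v3 the first of these was -0.34 (adjusted p = 0.0122). After siCARLo-3, siCARLo-4 and siCARLo-7 v2 the log2 differences were -0.05 (95% interval -0.28 to 0.18), -0.13 (-0.34 to 0.08) and -0.17 (-0.38 to 0.05), with adjusted p of 0.718, 0.307 and 0.198. Over the 6 HCT116 groups the means of CDK2 spanned 0.43 on the log2 scale, rank 164 of 178 genes, where CCNE1 spanned 0.99 (rank 80) and CCNE2 1.40 (rank 26) and the median gene 0.90. The pooled SD within groups was 0.12 for CDK2, 0.16 for CCNE1 and 0.25 for CCNE2, against a median of 0.17.

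Without overlap between siCARLo and control libraries stood 3 of the 3 genes for siCARLo-1 v3, 2 for siCARLo-3, 3 for siCARLo-4, 3 for siCARLo-5 and 1 for siCARLo-7 v2. The shares of all genes tested without overlap in these comparisons were 50.6%, 62.4%, 60.7%, 68.5% and 57.3%. Beside these shares, the counts do not set the 3 genes apart from the panel.

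The siCARLo groups that share a set of positive control sums were also compared with each other. The control libraries are not part of these differences, but they entered the scaling and the estimate of spread in the same fit of 18 libraries. CCNE1 was 1.89-fold lower after siCARLo-3 than after siCARLo-1 v3 (log2 -0.92 ± 0.14 SE, adjusted p = 2.60e-05, edgeR), and CCNE2 2.12-fold lower (log2 -1.08 ± 0.19, adjusted p = 1.23e-04). CDK2 was 1.30-fold higher (log2 0.38 ± 0.11, adjusted p = 0.00887). All 3 were called where 55.1% of all genes were, 28.1% higher and 27% lower, and all 3 had no overlap where 51.1% of all genes had none. Without replicate 3 of siCARLo-1 v3 the differences were -1.06, -1.21 and 0.29. The CDK2 call was lost without siCARLo-3 replicate 1 (adjusted p = 0.0545). It was also lost with other scalings, at -0.06 and so in the other direction under positive control sums (adjusted p = 0.814), and at 0.09 with 6 reference genes (adjusted p = 0.676).

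Against siCARLo-1 v3, siCARLo-4 had 2.25-fold lower CCNE2 (log2 -1.17 ± 0.17 SE, adjusted p = 2.12e-05, edgeR), the difference ranked 5 of 178 genes by size. CCNE1 was 1.28-fold lower (log2 -0.36 ± 0.12, adjusted p = 0.0197) and CDK2 1.23-fold higher (log2 0.30 ± 0.10, adjusted p = 0.0216), with 45.5% of all genes called, 26.4% higher and 19.1% lower. The CCNE1 and CDK2 differences ranked 74 and 88 by size. Libraries did not overlap for CCNE2 and CDK2, nor for 53.9% of all genes. The CCNE1 call was lost without siCARLo-1 v3 replicate 1 or 2 or siCARLo-4 replicate 2 (adjusted p = 0.0703, 0.101 and 0.0773), and it was -0.50 without siCARLo-1 v3 replicate 3. The CDK2 call was lost without siCARLo-1 v3 replicate 3 or siCARLo-4 replicate 2 or 3 (adjusted p = 0.0951, 0.0674 and 0.0560). Under positive control sums CCNE1 (-0.39) and CDK2 (0.29) lost their calls, with adjusted p of 0.109 and 0.211, and with 6 reference genes CDK2 did (0.17, adjusted p = 0.422). No such loss occurred for CCNE2, which was -1.31 to -1.07 with any 1 library left out.

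Between siCARLo-4 and siCARLo-3, 1 of the 3 genes was called, against 43.8% of all genes, 21.3% higher and 22.5% lower. The same 1 gene had no overlap, as did 59% of all genes. CCNE1 was 1.47-fold higher after siCARLo-4 (log2 0.56 ± 0.14 SE, adjusted p = 0.00271, edgeR), while CCNE2 differed by -0.09 (95% interval -0.51 to 0.33) and CDK2 by -0.08 (-0.31 to 0.14). Between siCARLo-7 v2 and siCARLo-5, 1 of the 3 was called, against 52.2% of all genes, 29.8% higher and 22.5% lower. CCNE1 and CDK2 had no overlap, as did 60.7% of all genes. CCNE1 was 1.61-fold higher after siCARLo-7 v2 (log2 0.69 ± 0.13, adjusted p = 2.22e-04, edgeR). CCNE2 differed by 0.44 (95% interval 0.05 to 0.82, adjusted p = 0.0538) and CDK2 by 0.19 (-0.03 to 0.40, adjusted p = 0.138). The CCNE2 difference passed the threshold without siCARLo-5 replicate 3 or siCARLo-7 v2 replicate 2 (adjusted p = 0.0266 and 0.0315).

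In PC3 the 2 cyclins moved in opposite directions relative to the bulk of the panel. Under positive control sums, given below, the sign of CCNE1 turned. CCNE1 was 54.5, 52.7 and 47.2 in the control libraries (51.5 ± 3.79) and 85.7, 85.3 and 76.7 after siCARLo-1 v2&4 (82.6 ± 5.08). CCNE2 was 168, 184 and 166 in the controls (173 ± 9.85) and 59.3, 74.8 and 61.7 after siCARLo-1 v2&4 (65.2 ± 8.38). CDK2 was 167, 179 and 177 (174 ± 6.63) and then 144, 147 and 159 (150 ± 8.00). For each gene the 3 treated libraries lay outside the control range, as they did for 79.9% of all genes tested.

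CCNE2 fell 2.64-fold after siCARLo-1 v2&4 (log2 -1.40 ± 0.10 SE, adjusted p = 3.04e-05, limma), and CCNE1 rose 1.60-fold (log2 0.67 ± 0.08, adjusted p = 2.81e-04). CDK2 fell 1.16-fold (log2 -0.22 ± 0.06, adjusted p = 0.0185). By size the changes of CCNE2, CCNE1 and CDK2 ranked 35, 75 and 139 of 179 genes. All 3 were called, where 76% of all genes were, 40.2% higher and 35.8% lower, so that a call alone sets them apart from few genes. The CDK2 call was lost without siCARLo-1 v2&4 replicate 1 or 2 or control replicate 2 or 3, with adjusted p of 0.0537, 0.0523, 0.0607 and 0.0636 by limma. Endogenous counts per positive control count were 10.4 ± 0.939 in the PC3 control and 5.96 ± 0.329 after siCARLo-1 v2&4, and their part in the result was not tested beyond the other scalings given below.

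The siCARLo-1 siRNAs of the lines carry different variant labels and doses, and their effects were set against each other in 1 fit over 24 libraries. The CCNE2 effect was lower in PC3 than after HCT116 siCARLo-1 v3 (log2 -2.13 ± 0.25 SE, 95% interval -2.65 to -1.62, adjusted p = 7.40e-07, limma), the difference ranked 3 of 184 genes by size. For CCNE1 the difference of the effects was 0.05 (95% interval -0.29 to 0.40, adjusted p = 0.840, rank 175), and for CDK2 0.12 (-0.15 to 0.40, adjusted p = 0.472, rank 157). Thus 1 of the 3 genes was called, where 55.4% of all genes were, 22.8% higher and 32.6% lower. Leaving out siCARLo-1 v3 replicate 3 gave -2.24 for CCNE2 and -0.06 for CCNE1. Line, variant, dose and set of positive control sums cannot be told apart in this comparison.

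The ratio of CCNE2 to CCNE1 counts within a library does not depend on how the library is scaled. Since the probes are of different genes, only its differences between groups can be read. On the log2 scale it was -0.23, -0.49 and -0.52 in the HCT116 controls (-0.41 ± 0.16) and -0.28, -0.33 and -0.29 after siCARLo-1 v3 (-0.30 ± 0.03), where the cyclins rose together and replicate 3 did not stand apart. It was -0.85, -0.02 and -0.75 after siCARLo-3 (-0.54 ± 0.46), a spread set by replicate 2. Lower ratios were found after siCARLo-4, at -1.23, -0.88 and -1.25 (-1.12 ± 0.21), after siCARLo-7 v2, at -1.00, -1.36 and -0.53 (-0.96 ± 0.41), and after siCARLo-5, at -0.55, -1.04 and -0.56 (-0.72 ± 0.28). All 9 of these libraries lay below all 3 controls. The PC3 controls had ratios of 1.62, 1.80 and 1.82 (1.75 ± 0.11), and the libraries after siCARLo-1 v2&4 had -0.53, -0.19 and -0.32 (-0.35 ± 0.17).

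**Figure D3:**
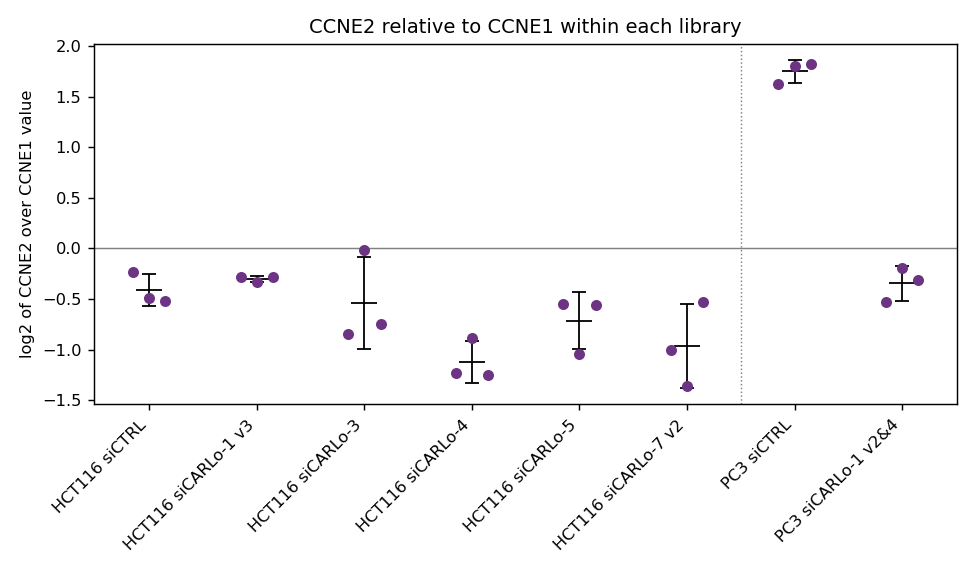
Log2 of the CCNE2 value over the CCNE1 value within each library (vertical axis) for the 8 groups. Points are libraries, bars the mean and SD of 3, and the dotted line separates the lines. The PC3 controls lay at 1.62 to 1.82, and every other library at or below -0.02.

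The mean ratio changed by -2.09 in PC3, by -0.71 after siCARLo-4, by -0.55 after siCARLo-7 v2 and by -0.30 after siCARLo-5, each with no overlap and with p = 0.1 in a two-sided exact permutation test. That is the smallest p that 3 libraries against 3 allow, so no ratio could pass the threshold. The differences after siCARLo-1 v3 and siCARLo-3 were 0.12 (p = 0.4, exact) and -0.12 (p = 0.6, exact). Single libraries carried much of some differences: without replicate 2 the siCARLo-5 difference was -0.14 and the siCARLo-7 v2 difference -0.35. For siCARLo-3 it was -0.39 without replicate 2 and turned to 0.03 without replicate 1. With any 1 library left out it was -0.83 to -0.62 after siCARLo-4 and -2.17 to -2.00 in PC3. Adjusted over the 10 comparisons of this ratio, the smallest p became 0.167. The CCNE1 to CDK2 ratio differed from control by 0.97 after siCARLo-1 v3, -0.32 after siCARLo-3, 0.31 after siCARLo-4, -0.10 after siCARLo-5, 0.40 after siCARLo-7 v2 and 0.90 in PC3, in each case with no overlap (p = 0.1, exact). The CCNE2 to CDK2 ratio differed by 1.08, -0.44, -0.39, -0.40, -0.15 and -1.19 in the same order, with overlap for siCARLo-3 and siCARLo-7 v2. Overlap was not counted for ratios of other genes, so its absence does not set these ratios apart from the panel.

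Fold changes of single genes did depend on how libraries were scaled. Dividing by the positive control sums, which ties counts to spiked RNA rather than to the bulk of the panel, put the median of all genes at -0.16, -0.61, -0.18, -0.36 and -0.05 for the HCT116 siRNAs in the order named at the start, and at -0.77 in PC3. Under TMM these 6 medians lay between -0.00 and 0.08. CCNE1 and CCNE2 after siCARLo-1 v3 were 0.38 and 0.49 and lost their calls (adjusted p = 0.112 and 0.0571, edgeR), while CDK2 was -0.61. After siCARLo-3 all 3 fell under this scaling, with CDK2 at -0.67 (adjusted p = 0.00206). After siCARLo-5 the changes grew to -0.87, -1.16 and -0.77 for CCNE1, CCNE2 and CDK2. In PC3 the sign of CCNE1 turned, to -0.18 (adjusted p = 0.242, limma), CCNE2 was -2.26 and CDK2 -1.08.

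With 6 genes commonly used as references (CLTC, GAPDH, GUSB, HPRT1, PGK1 and TUBB) as the base, the median of all genes was 0.14 after siCARLo-1 v3, -0.15 after siCARLo-3, -0.10 after siCARLo-5 and 0.32 in PC3. The CDK2 fall after siCARLo-1 v3 was -0.30 and no longer called (adjusted p = 0.148, edgeR), and CDK2 in PC3 was 0.03 (adjusted p = 0.738, limma). CCNE2 was -0.60 after siCARLo-3 and now called (adjusted p = 0.0409), and -0.52 after siCARLo-4 and no longer called (adjusted p = 0.0787). The rises of both cyclins after siCARLo-1 v3, the falls of all 3 genes after siCARLo-5 and both cyclin changes in PC3 kept their calls here. The fall of CCNE2 in PC3 was called under all 4 scalings, from -2.26 to -1.15.

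Among all called genes, the share that was higher also moved with the scaling. It was 41.1%, 48.4%, 50.8%, 45.9% and 56.1% for the HCT116 siRNAs in the same order and 52.9% in PC3 under TMM. Under the positive control sums it was 17.5%, 8.53%, 24.5%, 8.89%, 47.9% and 7.75%, and under the reference genes 66.7%, 31.4%, 59.5%, 31.5%, 70.5% and 68.1%.

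**Figure D4:**
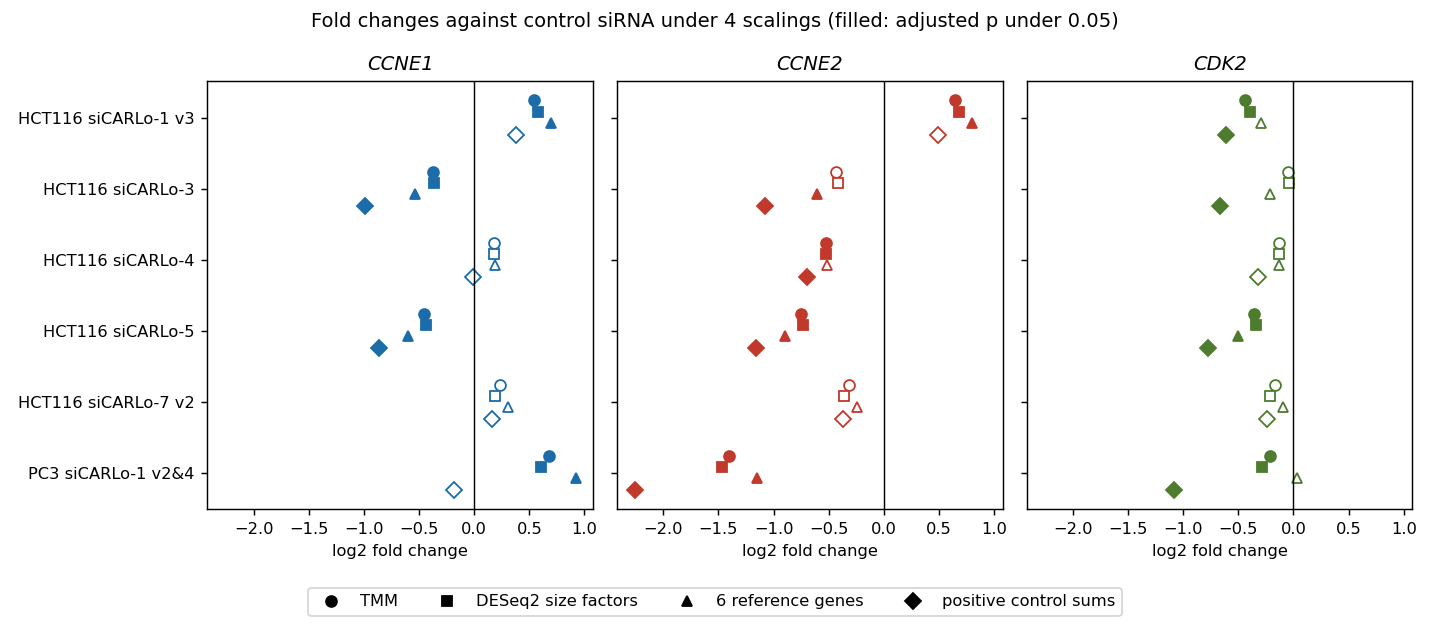
Log2 fold change against the control siRNA (horizontal axis) of each gene in each siCARLo group under 4 scalings of library size. Filled symbols have an adjusted p under 0.05. CCNE2 in PC3 lay between -2.26 and -1.15 under all 4, and CCNE1 in PC3 turned from 0.67 under TMM to -0.18 under positive control sums.

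The panel also holds regulators and partners of cyclin E and CDK2, described here by role. The counts of each list stand against the share of all genes called, which was 16.9% higher and 24.2% lower after siCARLo-1 v3, 25.3% and 27% after siCARLo-3, 18% and 17.4% after siCARLo-4, 25.3% and 29.8% after siCARLo-5, 20.8% and 16.3% after siCARLo-7 v2, and 40.2% and 35.8% in PC3. No list was tested against the panel. Of the CDK2 inhibitors CDKN1A (p21), CDKN1B (p27) and CDKN1C (p57), CDKN1A rose after every siRNA. Its log2 change was 2.36 after siCARLo-1 v3, 2.51 after siCARLo-3, 1.23 after siCARLo-4, 1.52 after siCARLo-5, 0.58 after siCARLo-7 v2 and 2.60 in PC3. CDKN1B fell by 0.40 after siCARLo-5 (adjusted p = 0.0278, edgeR), and in PC3 it rose by 0.53 and CDKN1C by 0.52, both of which turned negative under positive control sums (-0.32 and -0.34). In the other groups CDKN1B was -0.18, 0.15, 0.09 and -0.20 and not called. The inhibitor calls were thus 1 up and 0 down of 3 in 4 HCT116 groups, 1 up and 1 down after siCARLo-5, and 3 up in PC3. Under positive control sums they were 1 up and 2 down after siCARLo-3 and 1 up and 1 down in PC3.

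Of 5 tested genes that set the phosphorylation of CDKs, 0 rose and 2 fell after siCARLo-1 v3 and siCARLo-3. In the remaining HCT116 groups 1 rose and 2 fell, and in PC3 1 rose and 3 fell. The list medians were -0.06, -0.31, -0.15, -0.20, -0.12 and -0.29. The list holds activators and the inhibitory kinase PKMYT1, so its counts and medians give no direction for CDK2 activity. Under positive control sums 0 rose and 5 fell after siCARLo-3 and 0 rose and 4 fell in PC3, while with the reference genes 0 were called in either direction after siCARLo-1 v3, and 2 rose and 2 fell in PC3. CDK7, the kinase of the CDK-activating complex, fell by 0.38 after siCARLo-1 v3, 0.32 after siCARLo-4 and 0.26 after siCARLo-5, and rose by 1.12 in PC3. Its cyclin partner CCNH fell by 1.51 after siCARLo-7 v2, by 0.55 after siCARLo-4 and by 0.33 after siCARLo-5. MNAT1, the assembly factor of that complex, fell by 0.38 after siCARLo-1 v3, 0.38 after siCARLo-3 and 0.29 in PC3. PKMYT1, a kinase that places inhibitory phosphates on CDKs, rose by 0.67 after siCARLo-7 v2, by 0.49 after siCARLo-4 and by 0.38 after siCARLo-5, and fell by 0.63 after siCARLo-3 and by 0.64 in PC3. Its siCARLo-4 rise was not called under positive control sums (0.32), and its siCARLo-5 value turned to -0.02 there and was 0.24 and not called with the reference genes. CDC25A, the phosphatase that removes inhibitory phosphates from CDK2, fell by 0.56 in PC3 and by 0.43 after siCARLo-7 v2. The falls of CDK7 and MNAT1 after siCARLo-1 v3, of CDK7 after siCARLo-4, of CDC25A after siCARLo-7 v2 and of MNAT1 in PC3 were not called with the 6 reference genes. With the positive control sums the fall of CDC25A after siCARLo-7 v2 and the rise of CDK7 in PC3 were not called.

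Among 5 tested genes of cyclin E turnover, 0 rose and 2 fell after siCARLo-1 v3, 2 and 2 after siCARLo-3, 0 and 1 after siCARLo-4, 1 and 2 after siCARLo-5, 1 and 1 after siCARLo-7 v2, and 3 and 1 in PC3. The medians were 0.08, 0.47, -0.11, 0.05, 0.02 and 0.42. Under positive control sums the counts were 0 and 2 after siCARLo-3, 0 and 2 after siCARLo-5, 0 and 1 after siCARLo-7 v2, and 1 and 3 in PC3. SKP2, the F-box protein that targets p27 and free cyclin E, fell by 0.64 after siCARLo-1 v3, 1.35 after siCARLo-3, 0.27 after siCARLo-5, 0.90 after siCARLo-7 v2 and 1.63 in PC3, calls that held under the 4 scalings. FBXW7, which recognises phosphorylated cyclin E, rose by 1.46 in PC3, by 0.63 after siCARLo-3 and by 0.55 after siCARLo-7 v2, and fell by 0.49 after siCARLo-4. The FBXW7 value after siCARLo-3 turned to -0.02 under positive control sums, and the HCT116 FBXW7 calls were each lost under at least 1 scaling.

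Of 12 genes that control cyclin E transcription, 3 rose and 3 fell after siCARLo-1 v3, 3 and 5 after siCARLo-3, 3 and 4 after siCARLo-4, 3 and 3 after siCARLo-5, 2 and 1 after siCARLo-7 v2, and 5 and 6 in PC3. The medians were 0.16, -0.43, -0.16, 0.17, -0.10 and -0.12. The list holds both activators and repressors, so its counts and medians give no direction for cyclin E transcription. Under positive control sums 0 rose and 9 fell after siCARLo-3 and 0 rose and 11 fell in PC3. After siCARLo-7 v2, 0 were called in either direction under positive control sums or with the reference genes. Only the 4 largest called changes of a comparison are named here, and the links to the cyclin E genes were not tested. After siCARLo-1 v3, where both cyclin E genes rose, the repressor genes RB1 (log2 -0.76) and RBL1 (-0.72) fell. The activators E2F3 (0.55) and MYC (0.77) rose, of which E2F3 lost its call under positive control sums. After siCARLo-3 the activator E2F1 fell by 1.78 and the repressive members E2F4, RBL2 and RBL1 fell by 1.19, 1.17 and 1.01. After siCARLo-5 RBL1 fell by 1.11, RB1 by 0.49 and RBL2 by 0.48, and HDAC1, a corepressor of the retinoblastoma proteins, rose by 0.80. In PC3, where CCNE1 rose and CCNE2 fell under TMM, E2F2 fell by 2.18, E2F1 by 1.41 and RBL1 by 2.03. E2F4 rose there by 0.75. After siCARLo-4 E2F2 rose by 0.90 and E2F1 by 0.48, the latter without a call under the positive control sums or the reference genes. RBL1 fell there by 0.73 and TFDP1 by 0.50, and CCNE2 was lower.

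Of the other cyclins and kinases of G1 and S, CCNA2, the cyclin that takes over CDK2 during S phase, fell by 1.22 after siCARLo-1 v3, 0.48 after siCARLo-3, 0.54 after siCARLo-5, 0.46 after siCARLo-7 v2 and 2.03 in PC3. After siCARLo-4 it was -0.11 and not called, and the siCARLo-7 v2 call was lost with the reference genes. CCND1, the D-type cyclin that acts earlier in G1, rose in each HCT116 group, by 1.01, 1.26, 0.69, 0.76 and 1.07, and by 0.79 in PC3, where it turned to -0.08 under positive control sums. CCNA2 and both cyclin E genes therefore moved in opposite directions after siCARLo-1 v3. The list counts were 1 up and 1 down of 5 tested after siCARLo-1 v3 and siCARLo-4, 2 and 2 after siCARLo-3 and siCARLo-7 v2, 3 and 2 after siCARLo-5, and 3 and 1 of 7 in PC3, with medians of 0.29, 0.17, 0.05, 0.21, 0.52 and -0.05. Under positive control sums the PC3 count was 0 up and 4 down, and that of siCARLo-7 v2 was 1 and 2, where the reference genes gave 2 and 0.

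Of the origin firing genes, on whose products cyclin E and CDK2 act at the start of S phase, 12 were tested. Among these 12, 0 rose and 9 fell after siCARLo-1 v3 (median log2 change -0.49). A link to the levels of the cyclin E genes was not tested. The counts were 1 up and 6 down after siCARLo-3 (median -0.36), 0 and 5 after siCARLo-4 (-0.27), 1 and 6 after siCARLo-5 (-0.36), 2 and 1 after siCARLo-7 v2 (-0.02) and 0 and 11 in PC3 (-1.35). CDC7, the kinase that fires licensed origins, fell by 0.70, 1.32, 0.86, 0.98, 0.65 and 2.10 in these 6 comparisons. The 2 genes that rose after siCARLo-7 v2 were PCNA, by 1.06, and MCM2, by 0.64. ORC1, a subunit of the origin recognition complex, fell by 0.73 after siCARLo-1 v3, and MCM6, a subunit of the replicative helicase, by 1.82 in PC3. With the reference genes 3 of the 12 fell after siCARLo-1 v3 and 2 after siCARLo-4, in place of 9 and 5.

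Across the 18 HCT116 libraries CCNE1 and CCNE2 had a Pearson correlation of 0.66 in their log2 normalised counts, while CDK2 had -0.07 with CCNE1 and -0.27 with CCNE2. The genes most like CCNE1 were ORC2 (0.83), CDC16 (0.73) and POLE2 (0.69), with CCNE2 at rank 8 of the other 177 genes. Those most like CCNE2 were CDK6 (0.87), ANAPC4 (0.81) and NEK1 (0.80), and those most like CDK2 were BUB1 (0.81), MAD2L1 (0.77) and CCNA2 (0.75). Without siCARLo-1 v3 replicate 3 the values of these 3 genes with CDK2 became 0.71, 0.71 and 0.58. CDK2 then had 0.0051 with CCNE1, against -0.07, and -0.13 with CCNE2, and the CCNE1 and CCNE2 correlation was 0.65. These values describe 18 libraries that form 6 groups and share library scaling, and the medians over all other genes were 0.02, -0.04 and 0.02.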

How the data were processed

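Counts of 189 endogenous, 6 positive and 8 negative control probes were used from 24 libraries in 8 groups. In 7 groups the deposited tables hold raw counts. For PC3 siCARLo-1 v2&4 and in the series-wide table, an alternative here, each deposited value is a score, which the authors had already scaled so that positive control sums are equal within a set. The sources used here do not name the image processing or its software. No genome build is named, so no coordinates are given.

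Genes entered a fit if at least 3 of its libraries exceeded background, which was 2 SD over the mean negative probe. HCT116 comparisons used edgeR 4.0.16 (quasi-likelihood F test, TMM) on the counts of 18 libraries, and the control lines were compared on 21 count libraries. PC3 and the difference of effects used limma 3.58.1 on TMM-scaled values, with 1 added before taking log2, since 1 group holds no counts, and fold changes of low genes are slightly understated on that scale. Adjusted p-values (Benjamini-Hochberg, over all genes of a comparison) were read at a threshold of 0.05. Standard errors of edgeR changes were derived from the F statistic. The scripts were tested on simulated counts. Fits ran in R 4.3.3, with DESeq2 1.42.0 as an alternative, and plots in matplotlib 3.10.9 under Python 3.11.15.

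Depth was 55893 to 236508 endogenous counts per library, with 167 to 184 genes above a background of 4.64 to 16.1 counts. Counting intervals cover counting error only. TMM sets the bulk of the panel to no change and hides a shift common to most genes. Alternatives were other scalings and tools, no filter, background subtraction, the series-wide table, a replicate block, merged control libraries and each library left out.

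The 3 genes, the 6 role lists and the comparisons were chosen with earlier results of these data known. Named genes are the 3 members, up to 4 called genes per list and comparison by size of change, CDKN1A, CDKN1B and CCNA2 in every comparison, and the 3 genes most correlated with each member, of which the text gives a part. CDH1, SFN and TWIST1 served as line markers. SFN, another epithelial gene, was 471 ± 24.2 in the HCT116 control and 415 ± 9.35 in the PC3 control. In the same order CDH1 was 119 ± 12.7 and 530 ± 27.2, and TWIST1 was 2.36 ± 2.85 and 18.2 ± 3.77.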

Additional observations from a re-analysis of the deposited data

Results flagged for a closer look

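The CCNE2 effect of the siCARLo-1 siRNAs differed between the lines by -2.13 on the log2 scale (PC3 siCARLo-1 v2&4 effect minus HCT116 siCARLo-1 v3 effect, adjusted p = 7.40e-07, limma interaction term). By group, CCNE2 was 2.64-fold lower than control in PC3, with 3 of 3 libraries below every control, and 1.57-fold higher than control in HCT116, with 3 of 3 libraries above every control. Of all genes tested, 79.9% in PC3 and 50.6% in HCT116 had no overlap either, and 55.4% were called for the difference. The difference was -1.92 with the 6 reference genes, -2.71 with the positive control sums and -3.45 in the series-wide table. The medians of all genes moved likewise, to 0.14, -0.66 and -1.39. The series-wide table holds offsets between the sets of positive control sums, so its value is no separate check. Line, siRNA variant, dose and set of positive control sums differ together here and cannot be told apart.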

How the results depend on the processing

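DESeq2 size factors and the absence of a filter on low counts changed none of the 36 results on single genes in direction or call, nor did a pseudocount of 10 (6 results) or limma over 24 libraries (3). Values after a comparison are log2 differences. With positive control sums, CCNE1 was 0.38 and CCNE2 0.49 after siCARLo-1 v3, CCNE1 -0.0065 and not called after siCARLo-4, CCNE2 -1.08 and CDK2 -0.67 after siCARLo-3, and CCNE1 -0.18 in PC3. Between groups, they gave for siCARLo-3 minus siCARLo-1 v3 CDK2 -0.059, for siCARLo-4 minus siCARLo-1 v3 CCNE1 -0.39 and CDK2 0.29, for siCARLo-4 minus siCARLo-3 CCNE2 0.39 and CDK2 0.35, for siCARLo-7 v2 minus siCARLo-5 CCNE2 0.79 and CDK2 0.53, and for the difference between lines CCNE1 -0.52 and CDK2 -0.46. With the 6 reference genes, CDK2 was -0.30 after siCARLo-1 v3, CCNE2 -0.60 after siCARLo-3 and -0.52 after siCARLo-4, CDK2 0.030 in PC3, and CCNE2 0.40 between the control lines. In the same order of group pairs they gave CDK2 0.085, CDK2 0.17, CCNE2 0.083 and CDK2 0.081, and CCNE2 0.65 and CDK2 0.41. The series-wide table holds offsets between the sets of 0.45, 0.84 and -0.30 on the log2 scale. In it CDK2 was -0.18 after siCARLo-1 v3, CCNE2 -0.66 after siCARLo-3, CCNE2 -0.27 and CDK2 0.12 after siCARLo-4, CCNE1 -0.036, CCNE2 -0.34 and CDK2 0.065 after siCARLo-5, CCNE1 0.99, CCNE2 0.44 and CDK2 0.60 after siCARLo-7 v2, CCNE1 -0.47 in PC3 and CDK2 0.77 between the control lines. It gave CDK2 -0.042 for siCARLo-3 minus siCARLo-1 v3, CCNE1 -0.35 and CDK2 0.30 for siCARLo-4 minus siCARLo-1 v3, CCNE2 0.39 and CDK2 0.34 for siCARLo-4 minus siCARLo-3, CCNE2 0.78 and CDK2 0.53 for siCARLo-7 v2 minus siCARLo-5, and CCNE1 -1.26 and CDK2 -1.20 for the difference between lines. Its counts of called genes were 49 in place of 81 for siCARLo-4 minus siCARLo-1 v3, 139 in place of 66 for siCARLo-7 v2, and 158 in place of 102 for the difference between lines. The cause of the changes was not tested. CCNE2 in siCARLo-7 v2 minus siCARLo-5 passed the threshold with DESeq2's Wald test (0.44, adjusted p = 0.0481) and after background subtraction (0.46, adjusted p = 0.0483), and CCNE2 after siCARLo-4 missed it with control libraries 1 and 2 merged (-0.51). DESeq2's test of the control lines was chosen after seeing the data.

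With any 1 library left out, CCNE1 ranged from -0.42 to -0.30 after siCARLo-3, CCNE2 from -0.70 to -0.31 after siCARLo-3 and from -0.61 to -0.44 after siCARLo-4, and CDK2 from -0.13 to 0.013 after siCARLo-3 and from -0.31 to -0.19 in PC3. The ranges for siCARLo-4 minus siCARLo-1 v3 were -0.50 to -0.25 for CCNE1 and 0.21 to 0.38 for CDK2, for siCARLo-3 minus siCARLo-1 v3 0.29 to 0.46 for CDK2, for siCARLo-4 minus siCARLo-3 -0.22 to 0.17 for CCNE2, for siCARLo-7 v2 minus siCARLo-5 0.29 to 0.58 for CCNE2, and for the difference between lines -0.060 to 0.18 for CCNE1. Replicate numbers gave no clear sign of pairing. Same-numbered HCT116 libraries had correlations of their deviations from -0.42 to 0.30, and differently numbered ones from -0.56 to 0.49. In PC3 the ranges were -0.11 to 0.10 and -0.30 to 0.27. With 3 libraries per group these values cannot exclude shared cultures or batches. With the replicate block all 36 results kept direction and call, for example CCNE1 0.54 after siCARLo-1 v3 (adjusted p = 0.00316) and CCNE2 -1.40 in PC3 (adjusted p = 2.13e-04). Counts as low as 40 for CCNE2, and 3 libraries per group, limit what differences could be seen.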
